A study of Mus musculus with 2 samples.

Results

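The cells described here are a group of sorted mouse small cell lung cancer cells that carry transcripts of the endocrine regulators Hhex and Isl1, and they are called Hhex/Isl1 cells below. They were chosen by their own counts. A cell barcode with 500 or more detected genes and at most 10% of its unique molecular identifiers (UMIs, counts of captured RNA molecules) from mitochondrial genes was kept, and a kept barcode was a member if Hhex, Isl1, Hoxb8, Sfrp5 and Gfra4 together gave 5 or more UMIs and 3 or more of these 5 genes were detected. The rule found 747 members among 7890 kept barcodes. Of these, 17 of 3672 were in the vehicle library (0.463%, exact 95% interval 0.270 to 0.740%) and 730 of 4218 in the cisplatin library (17.3%, 16.2 to 18.5%). The intervals, like all intervals below, cover counting error only.

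The tumours arose in the lungs of mice of mixed strain. All animals carried a CGRP-CreER allele, which places a tamoxifen-inducible Cre recombinase in cells that use Calca, the gene of CGRP, and also an mTmG colour reporter at Rosa26 and floxed alleles of several tumour suppressors, with Rb1 and Trp53 being 2 of those genes. Recombined cells turn green, and live GFP-positive cells were sorted, so the sort aimed at descendants of cells that had used CGRP. Some barcodes nevertheless carried markers of blood or vessel cell types, as given below. One group received saline (the vehicle) and the other 5 mg/kg cisplatin, a drug that crosslinks DNA, every 4 days for 2 weeks, and 5000 cells were loaded for each. The library protocol speaks of cisplatin with etoposide, so whether a second drug was given cannot be told from the labels. There was 1 library per group and the sources used here do not give the number of animals behind each, so treatment and library cannot be told apart and no test between groups was possible.

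Delta cells are the somatostatin-secreting cells of the pancreatic islets and the gut. Somatostatin is a short peptide that holds back the release of other hormones. Hhex is a homeobox factor required for islet delta cells, and Isl1 is a LIM-homeobox factor of islet and other endocrine cells and of motor neurons. Neuroendocrine cells of many organs share a secretory apparatus in which granins pack prohormones into dense-core granules and prohormone convertases cut them into active peptides. In small cell lung cancer the factors Insm1 and Nkx2-1 are among those that mark the usual neuroendocrine state.

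The promoters of Sst, Scg2 and Pcsk1 are shown because they belong to a hormone and to secretory genes that stood higher in cisplatin Hhex/Isl1 cells and because they hold the same element, the palindromic cyclic AMP response element. Chgb meets both conditions too, but its window lies wholly inside the GENCODE M21 gene model and is not shown. Each line gives the 250 bases before the RefSeq gene start (GRCm38.p6), 5′ to 3′ on the gene's own strand, with the element in capitals. Sst lies on the minus strand at chr16:23890845-23891094, Scg2 on the minus strand at chr1:79440027-79440276 and Pcsk1 on the plus strand at chr13:75089607-75089856.
Sst: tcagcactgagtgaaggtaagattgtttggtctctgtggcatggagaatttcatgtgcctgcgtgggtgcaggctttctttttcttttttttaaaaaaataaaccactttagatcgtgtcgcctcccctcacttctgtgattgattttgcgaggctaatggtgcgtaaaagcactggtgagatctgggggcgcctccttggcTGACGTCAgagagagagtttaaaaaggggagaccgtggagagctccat
Scg2: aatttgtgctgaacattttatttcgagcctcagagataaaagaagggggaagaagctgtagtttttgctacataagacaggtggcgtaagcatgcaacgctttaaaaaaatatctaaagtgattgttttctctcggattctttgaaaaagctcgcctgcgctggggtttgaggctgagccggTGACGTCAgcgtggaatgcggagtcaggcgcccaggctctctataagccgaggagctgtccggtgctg
Pcsk1: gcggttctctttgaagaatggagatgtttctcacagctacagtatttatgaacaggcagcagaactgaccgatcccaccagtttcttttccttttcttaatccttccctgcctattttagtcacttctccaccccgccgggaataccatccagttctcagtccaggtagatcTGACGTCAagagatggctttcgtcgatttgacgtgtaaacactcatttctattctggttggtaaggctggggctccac
The element TGACGTCA reads the same on both strands. It begins 48 bases before the gene start in Sst, 68 in Scg2 and 78 in Pcsk1. The GENCODE M21 models of these 3 genes begin inside the windows shown, upstream of the element in Sst and Scg2, so that there the element lies inside the GENCODE gene, and downstream of it in Pcsk1. The element stood in 508 of 32851 such windows in the RefSeq table (1.55%). Among the 19 granin and prohormone processing genes 17 had a window and 3 of those held it (Scg2, Chgb and Pcsk1). Among genes 2-fold higher in the Hhex/Isl1 cells 19 of 542 held it (3.51%), close to the 3.29% of all measured genes with a window. None of the 5 genes of the rule held it in this window.

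The libraries held 3726 vehicle and 4254 cisplatin barcodes with 32519922 and 28777462 UMIs. The 17 vehicle members had between 8032 and 20242 UMIs (median 11433, against 8192 in the other vehicle cells). The 730 cisplatin members had between 2036 and 82540 UMIs (median 8020, against 5597 in the other cisplatin cells). Members were thus the deeper cells in both libraries, and a rule on raw counts finds deeper cells more easily. The libraries shared 23 barcode sequences, of which 3 were cisplatin members and 0 were vehicle members. Reads of the floxed genes cannot check the genotype, since RNA counted at the 3′ end can come from outside the deleted part. Rb1 was at 10.6 CPM (UMIs of the gene per 1000000 UMIs of the group) in cisplatin members and 14.5 CPM in the other cisplatin cells, and Trp53 at 97.0 and 77.0 CPM.

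The summed counts of the 5 genes of the rule, which chose the members, are given as a description only. On these counts the vehicle members lay apart from the other vehicle cells. The vehicle members had between 15 and 36 UMIs over these genes (median 24), while the highest other vehicle cell had 7. The cisplatin members formed a continuous range from 5 to 79 UMIs (median 19). Of them 98 had 5 to 9 UMIs, 405 had all 5 genes detected, 245 had 4 and 80 had 3. Just outside the rule stood 91 cisplatin cells with 3 or 4 UMIs and 18 with 5 or more over fewer than 3 genes, and 2342 cells had none. The cells with 3 or 4 UMIs held 280 CPM of Sst, 106 CPM of Pnoc and 856 CPM of Scg2, against 782, 661 and 5120 CPM in the members with 5 to 9 UMIs. In the cells with no UMI of the 5 genes the same values were 23.2, 20.3 and 195 CPM. Hence the cisplatin cells next to the threshold were intermediate in the sum of these other genes, and the 18 cells that failed only on the number of genes held 2459 CPM of Scg2.

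**Figure D1:**
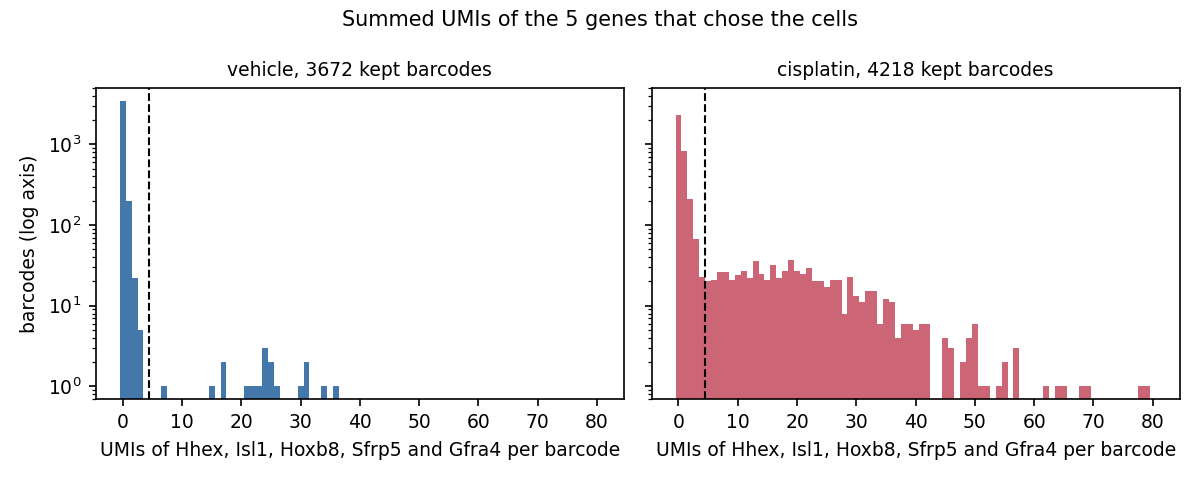
Histograms of the summed UMIs of Hhex, Isl1, Hoxb8, Sfrp5 and Gfra4 per kept barcode (x axis) against the number of barcodes (y axis, log scale) in the vehicle and cisplatin libraries; the dashed line is the minimum of 5 UMIs. The 17 vehicle members sit at 15 or more, apart from the rest, and the 730 cisplatin members run on from the low counts without a gap. These are the counts that chose the members.

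The 5 genes that chose the cells had these levels, given as a description only. Hhex (chr19:37434810-37440731) was at 599 CPM in vehicle members, 1.09 in other vehicle cells, 517 in cisplatin members and 12.9 in other cisplatin cells. Isl1 (chr13:116298281-116309689) was at 259, 0.0312, 213 and 3.45 CPM in the same order. Hoxb8, a homeobox gene of the HoxB cluster, was at 254, 0.654, 352 and 5.78 CPM. Members of both libraries had similar levels of Hhex and Isl1, and the other cells of the cisplatin library had more of all 5 than the other cells of the vehicle library. Members made up 17.3% of the kept cisplatin barcodes and 0.463% of the kept vehicle barcodes. Whether the low counts in the other cells were those cells' own was not tested. Sfrp5, a secreted antagonist of Wnt ligands, was at 398, 2.34, 609 and 18.4 CPM. Gfra4, the co-receptor for persephin, was at 527, 4.08, 774 and 34.6 CPM.

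The label of delta-like cells was borne out only in part. Of 10 islet delta cell markers, 7 were measured (50 or more UMIs over the cisplatin cells), and 3 of them, Hhex, Isl1 and Sst, were 2-fold higher in cisplatin members. Of those 3, Hhex and Isl1 belong to the rule. Over all measured genes 6.1% were higher and 9.54% lower. The islet factor Pdx1 was at 0 UMIs in every group. The ghrelin receptor gene Ghsr was at 0 UMIs in members of both libraries and Nkx6-3 at 1. Rbp4 was at 78.1 CPM in cisplatin members and 121 CPM in the other cisplatin cells, and the fatty acid receptor gene Ffar4 at 151 and 220 CPM. The islet factors Nkx2-2, Pax6 and Neurod1 were at 0 UMIs in members of both libraries, which in the 6337991 UMIs of the cisplatin members allows up to 0.473 CPM. The lung factor Nkx2-1 was at 313 CPM in cisplatin members (437 in other cisplatin cells) and 244 CPM in vehicle members (306). Outside the rule, Sst was therefore the only delta cell marker called higher in cisplatin members. It was found in 442 of the 730 cisplatin members and in all 17 vehicle members. The cells also held transcripts of the lung factor Nkx2-1. Of 13 measured lung and neuroendocrine factors, 7 were lower in cisplatin members and 0 higher. The cells are named here by the genes of the rule.

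Peptide hormones set the Hhex/Isl1 cells apart from the other cells of the same library. Of 10 measured hormone genes, 5 were 2-fold higher in cisplatin members (Sst, Pnoc, Pyy, Calcb and Gal) and 3 were 2-fold lower (Cartpt, Iapp and Grp), with a median log2 ratio of 1.45. Over all 12219 genes measured in the cisplatin library, 745 were higher (6.1%) and 1166 lower (9.54%), with a median of -0.10, and because the members were chosen in the same contrast nothing is read from the difference. Ratios are taken on CPM + 1, and higher and lower mean 2-fold or more on that scale. The same 6.1% and 9.54% stand beside the counts of every list in the cisplatin library below.

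Sst (chr16:23889573-23890958), which encodes somatostatin, was lower in the cisplatin members than in the vehicle members. It was at 5971 CPM in vehicle members (5644 to 6312) and 981 CPM in cisplatin members (957 to 1005), against 3.24 and 33.0 CPM in the other cells. Each of the 17 vehicle members had Sst, with 1 to 364 UMIs (median 24). The highest vehicle members held 364 and 251 of their 1246 Sst UMIs, so the summed level rests largely on them. In the cisplatin library 442 of 730 members had it, with a median of 1 and a maximum of 553 UMIs. Vehicle members thus all carried Sst, while cisplatin members ranged from none to 553 molecules.

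Pnoc (chr14:65400673-65425472), the precursor of the opioid-like peptide nociceptin, had the opposite order. It was at 24.0 CPM in vehicle members (7.78 to 55.9, from 5 UMIs) and 672 CPM in cisplatin members (652 to 692), against 0.125 and 24.9 CPM in the other cells. Only 3 of the 17 vehicle members had a Pnoc UMI and none had more than 2, whereas 561 cisplatin members did. Pyy encodes peptide YY, a hormone of the gut. Vehicle members held it at 28.8 CPM (10.6 to 62.6), where all 6 UMIs came from 1 cell, and cisplatin members 296 CPM (283 to 310). Pyy too was concentrated, with 186 of 730 cisplatin members carrying it and 48.1% of its UMIs in 10 of them. Calcb, the beta form of calcitonin gene-related peptide, was at 527 CPM in vehicle members (433 to 635) and 1067 CPM in cisplatin members (1041 to 1092), against 27.5 and 48.6 CPM in the other cells. In vehicle members 45 of the 110 Calcb UMIs came from 1 cell. Calcb is a close paralog of Calca, so reads of the pair may have been assigned unevenly, and its level is uncertain. Calca itself, the locus that carries the Cre allele, had 1 UMI in cisplatin members and 0 in vehicle members. Gal, the neuropeptide galanin, was at 22.7 CPM in cisplatin members and 3.76 CPM in the other cisplatin cells. On the low side stood Cartpt, a neuropeptide precursor, at 9.47 and 93.0 CPM and Iapp, islet amyloid polypeptide, at 18.1 and 100 CPM.

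At equal depth the same order held for the share of cells with a UMI. Cells were thinned to 3000 UMIs, which left out 28 of the 730 cisplatin members and 333 of the other cisplatin cells. Sst was found in 42.7% of the 702 cisplatin members (39.0 to 46.5%, 60.5% unthinned) and in 7.48% of the other 3155 cells (13.2% unthinned). Pnoc was found in 62.8% and 5.58%, Calcb in 61.5% and 9.13%, and Pyy in 17.8% and 3.55%. All 17 vehicle members had Sst at this depth (exact lower bound 80.5%), 2 had Pnoc (11.8%) and 1 had Pyy (5.88%). Barcodes with 3 or more markers of blood or vessel cell types, which should lack these hormones, numbered 21 in the vehicle library (median 6081 UMIs) and 3 in the cisplatin library (median 4268 UMIs), and 0 of either had Sst, Pnoc or Pyy. Calcb was found in 3 of the 21 vehicle barcodes and 0 of the 3 cisplatin barcodes, so it was not absent from such cells, and Scg2 in 6 of 21 and 2 of 3. With so few, the exact upper bounds on a share of 0 were 16.1% and 70.8%, so the background in the cisplatin library could not be measured this way.

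Hormones overlapped in the same cells. Of the 702 thinned cisplatin members, 64 had none of Sst, Pnoc, Pyy and Calcb, 188 had 1, 264 had 2, 162 had 3 and 24 had all 4. Among the 300 cells with Sst, 204 also had Pnoc (68.0%, against 62.8% of all 702). Among the 125 cells with Pyy, 59 also had Sst (47.2%, against 42.7%), 78 had Pnoc (62.4%) and 83 had Calcb (66.4%, against 61.5%). Carrying one of these hormones thus went with carrying another about as often as in the members at large.

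Among the genes that pack and cut prohormones, those past 2-fold were all higher in cisplatin members. Of 18 measured granin and processing genes, 11 were higher and 0 were lower, with a median log2 ratio of 1.36. Over all measured genes 6.1% were higher and 9.54% lower. Scg2, the granin secretogranin II, was at 5454 CPM in vehicle members (5141 to 5780) and 7580 CPM in cisplatin members (7513 to 7648), against 146 and 248 CPM in the other cells. Every vehicle member had 11 to 154 Scg2 UMIs (median 58), and 729 of 730 cisplatin members had at least 1 (median 56, maximum 328). Pcsk2, prohormone convertase 2, was at 1404 and 3026 CPM in the members and 54.5 and 91.4 CPM in the other cells. Its partner convertase Pcsk1 was at 604 and 1176 CPM in the members and 343 and 346 CPM in the other cells. Pcsk2 was thus higher in members of both libraries, whereas Pcsk1 passed 2-fold in the cisplatin library only.

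The other granins followed with smaller ratios. Chga, chromogranin A, was at 1236 CPM in vehicle members and 2075 CPM in cisplatin members, against 360 and 321 CPM. Chgb was at 805 and 1149 CPM, against 266 and 291 CPM. Cpe, carboxypeptidase E, which trims cut peptides, was at 532 and 1306 CPM, against 172 and 279 CPM. Vgf, a granin-like neuropeptide precursor, was at 33.5 CPM in vehicle members and 43.4 in other vehicle cells but at 254 CPM in cisplatin members and 47.3 in other cisplatin cells. Vgf therefore stood above the other cells in cisplatin members but not in vehicle members, where it rests on 7 UMIs. Resp18, a granule protein, was at 3436 CPM in cisplatin members and 3948 CPM in the others, a log2 ratio of -0.20, and Ddc, an enzyme of amine synthesis, at 289 and 339 CPM. In the vehicle library 7 of 14 measured genes of the list were higher and 0 lower. Over all genes measured there 4.93% were higher and 4.27% lower.

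**Figure D2:**
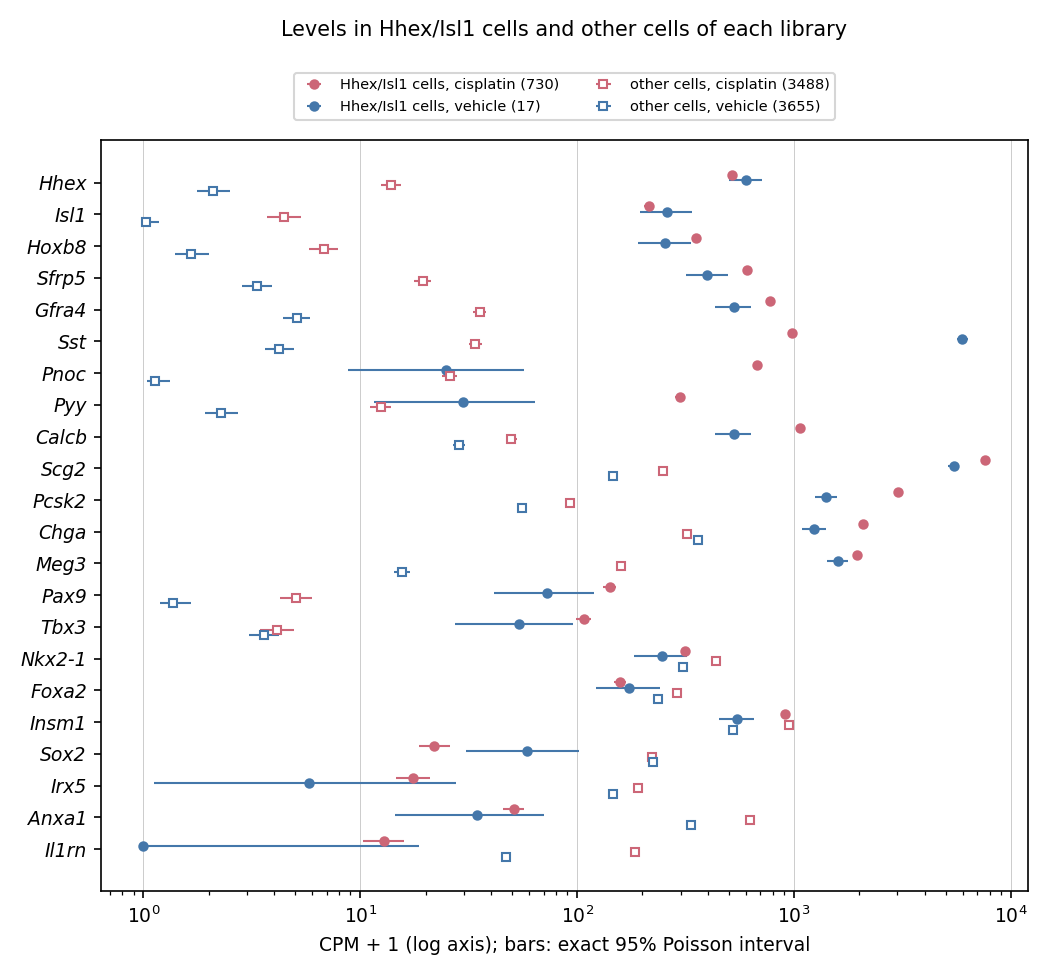
Summed levels (CPM + 1, log axis) of 22 genes in Hhex/Isl1 cells (filled circles) and other cells (open squares) of the vehicle and cisplatin libraries, with exact 95% Poisson intervals that cover counting error only. Sst is highest in vehicle members (5971 CPM) and Pnoc in cisplatin members (672 CPM), while Nkx2-1 and Insm1 differ little between members and other cells.

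Receptors for such peptides were sparse. Of 5 measured genes of 15, 1 was higher, Gipr, the receptor for the gut hormone GIP, at 9.94 CPM in cisplatin members and 1.30 CPM in the others. The somatostatin receptor genes Sstr2 and Sstr5 were lower, at 1.26 and 5.29 CPM and at 0.316 and 12.2 CPM. Npy1r, a receptor for neuropeptide Y and peptide YY, was at 3.94 and 35.2 CPM. The members therefore had more hormone transcript and fewer transcripts of the receptors Sstr2, Sstr5 and Npy1r than the other cells of the library. Among all measured genes 6.1% were higher and 9.54% lower.

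Markers of other endocrine cells were mixed. Of 5 measured thyroid C cell markers, 3 were higher (Gfra4, a rule gene, Calcb and Casr, the calcium-sensing receptor, at 6.63 and 2.33 CPM) and 0 lower. Of 4 measured islet alpha cell markers, 3 were lower, namely Irx1, Irx2 and Pou3f4, and the fourth, Ttr, was at 351 and 386 CPM. The glucagon gene Gcg was at 0.631 CPM in cisplatin members and 1.07 CPM in the others, and the insulin genes Ins1 and Ins2 and the gut hormone gene Gip were at 0 UMIs in all groups. Pyy was the only measured gene of 10 gut endocrine markers. The shares over all measured genes were 6.1% higher and 9.54% lower.

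The lung and neuroendocrine transcription factors were lower or near the other cells. Of 13 measured, 7 were lower in cisplatin members and 0 higher, with a median log2 ratio of -1.65. All measured genes gave 9.54% lower and 6.1% higher. Sox2, a progenitor factor, was at 57.5 CPM in vehicle members and 21.0 CPM in cisplatin members, against 222 and 221 CPM in the other cells. Mycl, a MYC family gene often amplified in small cell lung cancer, was at 9.58 and 4.73 CPM in the members, against 61.4 and 54.7 CPM. Both were thus lower in members of both libraries than in the other cells. Irx5 and Irx3, Iroquois factors, were at 16.6 and 8.84 CPM in cisplatin members and at 189 and 93.7 CPM in the others, and Hes6, which favours neurogenesis, at 114 and 380 CPM. Insm1, an endocrine zinc-finger factor, was at 906 and 952 CPM, and Foxa2, a forkhead factor of endoderm, at 157 and 287 CPM.

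Several other homeobox factors and a T-box factor were higher in the members. Of 8 measured Hox genes, 7 were higher (Hoxb3 to Hoxb8 and Hoxc4), 0 were lower and the median log2 ratio was 2.46. Over all measured genes 6.1% were higher and 9.54% lower. Of the 30 Hox genes listed, 19 were at 0 UMIs in cisplatin members. Hoxb8 is a rule gene and lies beside the rest of the HoxB genes on chromosome 11. Hoxb7 was at 43.1 CPM in vehicle members and 154 CPM in cisplatin members, against 0.280 and 3.36 CPM. Hoxb6 was at 120 and 147 CPM, against 17.6 and 16.4 CPM, and Hoxb5 at 91.1 and 144 CPM, against 82.4 and 57.5 CPM. Hoxb2, at 150 CPM in cisplatin members and 124 CPM in the others, was not 2-fold different, and Hoxb9, on the other side of Hoxb8, was at 0 UMIs in the members. Outside the rule, Hoxb7 and Hoxb6 thus stood well above the other cells in both libraries, and Hoxb5 only in the cisplatin library. Pax9, a paired-box factor of foregut pouches, was at 71.9 and 140 CPM in the members and 0.374 and 4.08 CPM in the others. Tbx3, a T-box repressor, was at 52.7 and 106 CPM, against 2.59 and 3.14 CPM.

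Further genes stood among the highest ratios. Ceacam10, a secreted member of the CEACAM family, was at 657 CPM in vehicle members (551 to 776) and 1659 CPM in cisplatin members (1628 to 1691), against 2.43 and 57.0 CPM in the other cells. A single vehicle member held 54 of the 137 Ceacam10 UMIs of that group. At equal depth 91.3% of cisplatin members and 13.0% of the others had Ceacam10. It was also found in 2 of the 3 cisplatin barcodes, and 0 of the 21 vehicle barcodes, with blood or vessel markers. Gnb3, a G protein beta subunit, was at 52.7 and 94.5 CPM in the members and 0.125 and 2.55 CPM in the others. The remaining 2 of the 15 highest were Sftpc and Cyp2f2, genes of lung epithelial cells that are taken up below.

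Imprinted genes differed in both directions. Of 13 measured, 6 were higher in cisplatin members (Meg3, Mest, Peg10, Mirg, Gnas and Snrpn) and 3 lower (Cdkn1c, Igf2 and Nnat), with a median log2 ratio of 0.84. All measured genes gave 6.1% higher and 9.54% lower. Meg3, a maternally expressed long noncoding RNA, was at 1586 CPM in vehicle members (1420 to 1767) and 1944 CPM in cisplatin members (1910 to 1978), against 14.5 and 159 CPM. Mest, a paternally expressed gene, was at 1136 and 542 CPM, against 72.8 and 50.6 CPM. Both were thus far higher in members of either library. Igf2, the paternally expressed growth factor, was at 9.58 and 2.37 CPM in the members and 185 and 25.6 CPM in the others, and Cdkn1c, a maternally expressed inhibitor of cyclin-dependent kinases, at 24.0 and 7.57 CPM, against 57.9 and 79.7 CPM.

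The lowest ratios belonged to genes of several functions. Rorb, a nuclear receptor gene, was at 4.58 CPM in cisplatin members and 86.0 CPM in the others, a log2 ratio of -3.96, and at 4.79 CPM (1 UMI) and 82.4 CPM in the vehicle library. Il1rn, the interleukin 1 receptor antagonist, was at 11.8 and 184 CPM in the cisplatin library, and at 0 UMIs (which allows up to 14.4 CPM) and 45.8 CPM in the vehicle library. Anxa1, the calcium-binding protein annexin A1, was at 50.02 and 624 CPM in the cisplatin library and 33.5 and 336 CPM in the vehicle library. These 3 were thus low in members of both libraries. Spock3, Dapk2, Osr1, Fgf5, Flrt3, Rasgrf1, Ptprz1, Irx5 and Palmd completed the 12 lowest, with cisplatin levels from 2.52 to 25.1 CPM in the members and from 38.7 to 326 CPM in the others.

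Lists for drug response and stress leaned low or stayed near the other cells. The comparison over all measured genes leaned low too, with 9.54% lower, 6.1% higher and a median of -0.10. Of 18 measured p53 target genes, 4 were lower (Phlda3, Rprm, Cdkn1a and Eda2r) and 0 higher, with a median of -0.60. Cdkn1a, the inhibitor p21, was at 184 CPM in cisplatin members and 537 CPM in the others. The 16 interferon-response genes had a median of -0.65, with 7 of them lower and 0 higher, and Oasl2 was at 2.84 and 20.1 CPM. Of 16 immediate early genes 4 were lower and 0 higher, and Fos was at 1039 and 2949 CPM. For these 3 lists every gene past 2-fold was lower in the members. Of 19 measured DNA repair genes 0 were 2-fold different in either direction, of 13 measured apoptosis regulators only Bmf was, lower, and of 16 stress-response genes 2 were lower (Chac1 and Trib3).

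Genes that handle platinum were split. Of 18 measured, 4 were higher (Mt1, Hmox1, Gstp1 and Mt2) and 3 lower (Atp7b, Slc31a2 and Slc7a11), with a median of -0.17. Over all measured genes 6.1% were higher and 9.54% lower. Mt1, a metallothionein that binds metal ions, was at 3658 CPM in cisplatin members and 1417 CPM in the others, and already at 4145 and 785 CPM in the vehicle library. Slc31a1, a copper and platinum importer, was at 23.2 and 35.6 CPM in the cisplatin library. Atp7b, a copper exporter, was at 0.631 and 12.2 CPM. The higher metallothionein level was thus present in vehicle members too.

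Among the other lists, of 11 measured class I antigen presentation genes 1 was higher and 1 lower, B2m, the light chain of class I molecules, at 2888 and 1247 CPM, and Tap1 at 11.2 and 23.6 CPM. Of 18 synaptic genes 3 were higher (Gap43, Tubb3 and Stmn3) and 1 was lower. The list of non-neuroendocrine genes had 18 measured, with 5 higher and 3 lower. Vim, the intermediate filament vimentin, was at 38.3 and 62.0 CPM in the members of the vehicle and cisplatin libraries and 3.83 and 2.73 CPM in the others, and Cdh1, E-cadherin, at 153 and 62.0 CPM, against 288 and 213 CPM. Of 13 Notch pathway genes 1 was higher (Notch2) and 5 lower, of 11 Wnt genes 2 were higher (Sfrp5, of the rule, and Frzb, a related antagonist, at 23.2 and 0.448 CPM) and 3 lower, and of 6 GDNF family genes 1 was higher (Gfra4, of the rule) and 4 lower. Of 6 measured YAP targets 3 were lower (Crim1, Amotl2 and Cyr61) and 0 higher. Of 15 hypoxia genes 2 were higher (P4ha1 and Ndrg1) and 0 lower. With 6.1% of all measured genes higher and 9.54% lower, nothing is read from these small counts.

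**Figure D3:**
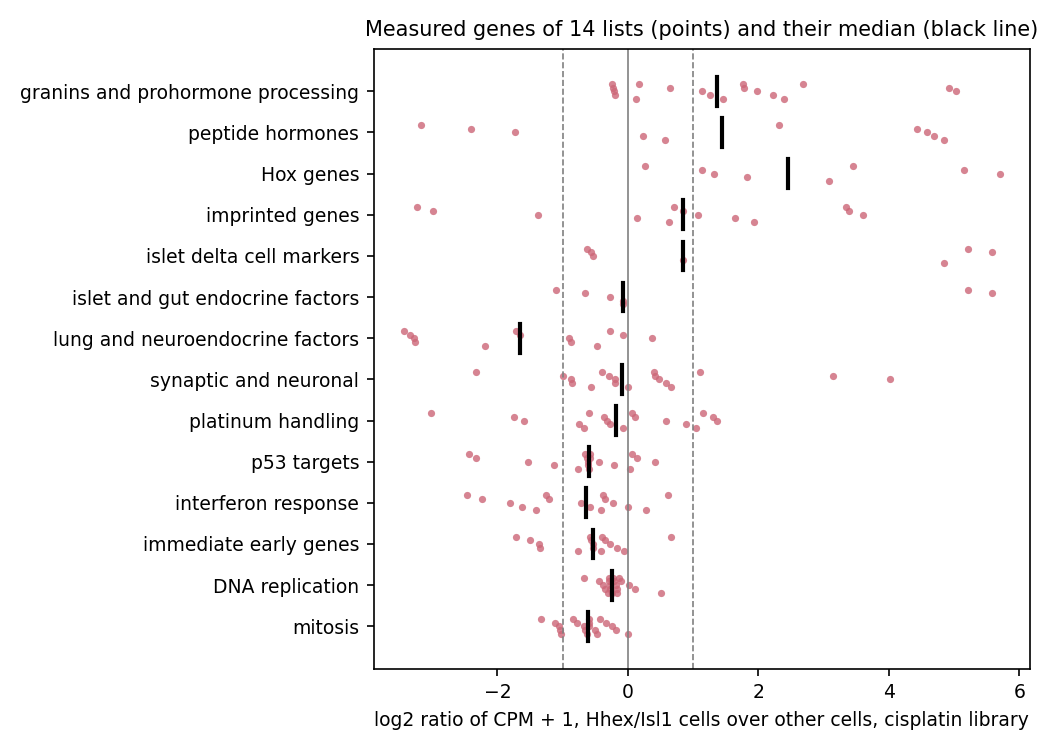
Log2 ratio of CPM + 1 in Hhex/Isl1 cells over other cells of the cisplatin library (x axis) for each measured gene (points) of 14 lists (rows), with the median of the list as a black bar and dashed lines at 2-fold. Hox genes (median 2.46), hormones (1.45) and granin genes (1.36) lie to the right and lung and neuroendocrine factors (-1.65) to the left, whereas replication genes stay near 0. The Hox row includes Hoxb8 and the islet rows include Hhex and Isl1, which chose the cells and are high by the rule.

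Replication genes differed little, whereas some mitosis genes were lower. Of 20 replication genes 0 were 2-fold different. Of 20 mitosis genes 5 were lower (Cdc20, Nusap1, Prc1, Aurkb and Top2a) and 0 higher, with a median of -0.62. In the vehicle library 3 of 8 measured were lower and 0 higher. Over all measured genes 9.54% were lower and 6.1% higher in the cisplatin library, and 4.27% and 4.93% in the vehicle library. A cell was counted as cycling if it had 2 or more UMIs over 10 mitotic genes after thinning to 3000 UMIs. By that count 234 of 702 cisplatin members were cycling (33.3%, 29.9 to 37.0%, 55.5% unthinned) and 39.4% of the other cisplatin cells (37.7 to 41.1%, 48.9% unthinned). The order of these shares thus turned when depth was not equalised. In the vehicle library 5 of 17 members (29.4%, 10.3 to 56.0%) and 31.9% of the other cells were cycling. Cdkn2a, which encodes p16 and p19Arf, was at 308 CPM in cisplatin members and 91.0 CPM in the others, and at 196 and 199 CPM in the vehicle library. Within the cisplatin members, cycling cells held a mean of 4.97 thinned Sst UMIs and the remaining 468 members 2.13, though the shares with Sst were 44.9% and 41.7%. Sfrp5 was found in 61.5% of cycling members and 80.1% of the remaining members, Calcb in 53.4% and 65.6%, and Sftpc in 30.8% and 48.7%.

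Members varied most in some hormones and in a few widely used genes. Among 2533 genes with a mean of 0.2 or more in thinned cisplatin members, the median ratio of variance to mean was 1.09, where sampling alone gives 1, and 11 genes were over 10. Sst had a ratio of 42.8, with 37.2% of its UMIs in 10 of the 730 members. Pyy had 18.3. The noncoding RNA Malat1 had 40.1, the stress gene Nupr1 23.2, the metallothioneins Mt1 and Mt2 16.8 and 10.6, the histone gene Hist1h2bc 15.9, the actin gene Actb 12.8 and the histone gene H3f3b 11.9. By contrast Scg2 had 8.93, the hormone Pnoc 5.09 and Ceacam10 3.58. In the other cisplatin cells the ratio was 45.2 for Malat1, 37.0 for Nupr1, 17.4 for Sst and 1.03 for Pyy. The variation of Malat1 and Nupr1 was thus not particular to the members. The hormones Sst and Pyy were thus far more uneven among members than the granin Scg2.

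**Figure D4:**
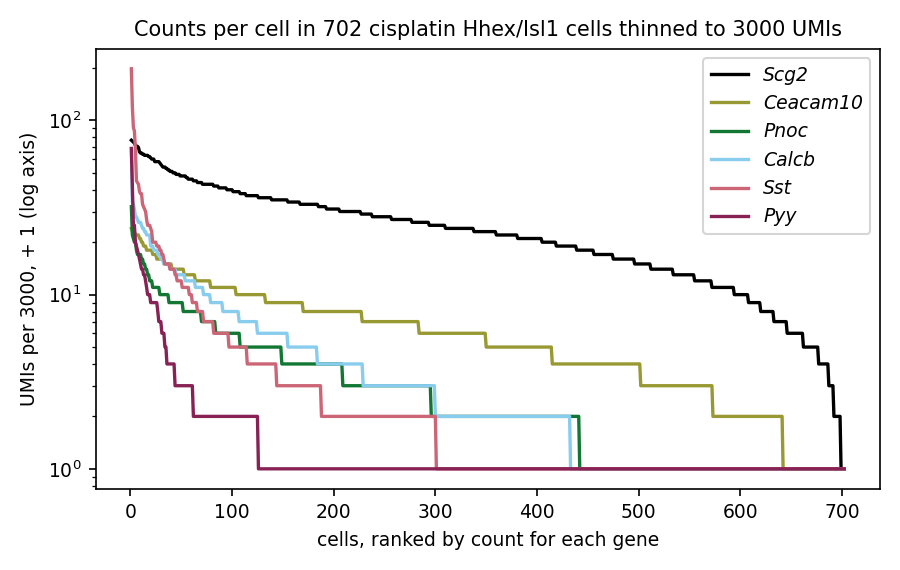
UMIs per 3000 (plus 1, log axis) of 6 genes in the 702 thinned cisplatin Hhex/Isl1 cells, with cells ranked separately for each gene from the highest count (x axis). Scg2 and Ceacam10 decline slowly over nearly all cells, whereas Sst and Pyy fall from a few very high cells to 0 within the first 300 and 125 cells.

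The highest ratio of variance to mean, 1064, belonged to Scgb1a1, the secretory protein of airway club cells, and it came from 1 barcode. The cisplatin member with the highest total held 82540 UMIs, and the next 35463. It held 44331 of the 46519 Scgb1a1 UMIs of all members, 805 of Scgb3a2, 709 of Cbr2 and 446 of the 457 of Cyp2f2. Its rule genes summed to 9 UMIs (109 CPM, against 2465 CPM over all cisplatin members), with 0 of Isl1 and 0 of Pnoc. Scgb1a1 was at 7340 CPM in all cisplatin members and at 350 CPM without it, against 488 CPM in the others, the ratio of variance to mean was 4.36, and Cyp2f2 was at 1.76 CPM, against 1.52 CPM in the others. In the vehicle library Scgb1a1 was at 57.5 CPM in members and 732 CPM in the others. With and without the barcode Scg2 was at 7580 and 7678 CPM and Sst at 981 and 993 CPM.

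Markers of other cell types were low in the members, with exceptions in lung epithelial lists. The summed level of 6 macrophage markers was 23.7 CPM in cisplatin members and 24.4 CPM in the others, that of 4 T cell markers 4.10 and 5.64 CPM (Cd3d at 0) and that of 4 endothelial markers 2.998 and 3.81 CPM (Cdh5 and Cldn5 at 0). The 5 fibroblast markers summed to 29.0 and 18.1 CPM, with Col1a1 and Pdgfra at 0, and the 4 B cell markers to 6.31 and 1.07 CPM. The 4 alveolar type 2 markers summed to 736 CPM in cisplatin members and 32.1 CPM in the others (259 and 47.3 CPM in vehicle), with none at 0 in cisplatin members. Most of this was Sftpc, surfactant protein C, at 648 and 24.9 CPM in the cisplatin library and 153 and 23.8 CPM in the vehicle library. It was spread over 431 of 730 cisplatin members with at most 99 UMIs in any. Sftpa1 was at 49.9 and 4.79 CPM, Lamp3 at 0.316 and 0.403 CPM, and Sftpb at 37.9 and 1.97 CPM, of which 230 of 240 UMIs came from the barcode of 82540 UMIs. The 3 ciliated cell markers summed to 87.9 and 11.2 CPM, of which Tmem212 was 86.5 CPM, while Foxj1 was at 1.42 CPM and Ccdc153 at 0. Of the cisplatin members 2 had 3 or more alveolar type 2 markers, 1 had 3 or more type 1 markers, 1 club and 1 macrophage markers, and 1 vehicle member had 3 or more erythroid markers. The part of these RNAs in the results was not tested.

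Most genes called in either library, among those above the floor in both, were called in the other too. Among 1826 genes with a mean of 100 CPM or more in the vehicle comparison, 90 were higher (4.93%) and 78 lower (4.27%) in the 17 vehicle members. Of the 1574 genes above that floor in both libraries, 154 were called in cisplatin and 139 in vehicle, and 97 were called in both (63.0% and 69.8% of each). Of these 55 were higher in both, 41 lower in both, and 1, Scgb1a1, went opposite ways. The members of both libraries were chosen by the same 5 genes, which are among the 55.

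**Figure D5:**
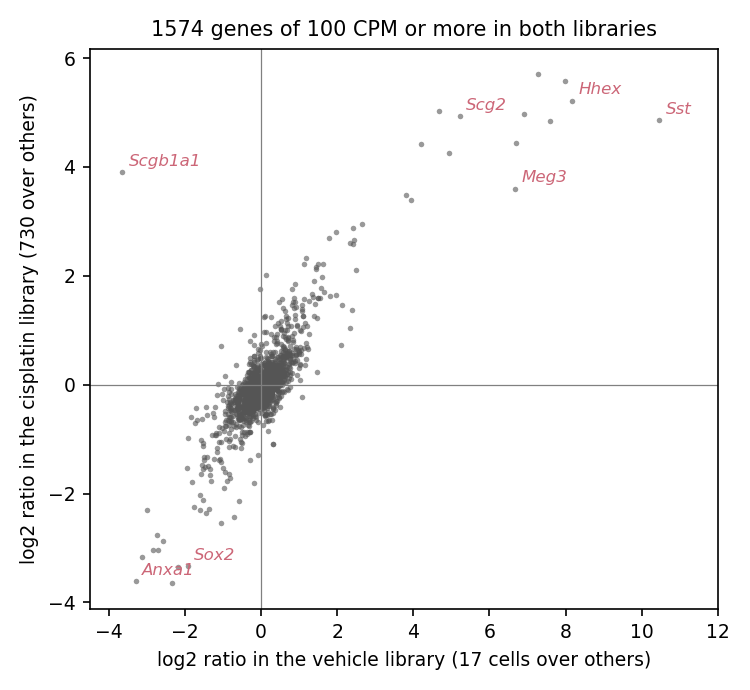
Log2 ratio of CPM + 1 in Hhex/Isl1 cells over other cells in the vehicle library (x axis, 17 cells) and the cisplatin library (y axis, 730 cells) for 1574 genes with a mean of 100 CPM or more in both. Sst, Hhex, Scg2 and Meg3 lie high in both and Anxa1 and Sox2 low in both, and Scgb1a1 alone lies at upper left, where 1 cisplatin barcode holds 44331 of 46519 UMIs.

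Some genes also separated the members of the cisplatin library from those of the vehicle library. Of 1772 genes with a mean of 100 CPM or more over the members of both libraries, 81 were higher (4.57%) and 55 lower (3.1%) in cisplatin members, with a median of -0.01. Of the 81, 17 were also 2-fold higher in the other cells of the cisplatin library than in those of the vehicle library (17 of the 30 genes so called there), and of the 55, 8 were 2-fold lower (8 of 11). Pnoc (log2 ratio 4.75) and Pyy (3.32) were the highest after Scgb1a1 (6.97, from the barcode above). The other cells differed between the libraries in the same direction for both, with log2 ratios of 4.53 for Pnoc and 2.45 for Pyy. These 2 differences were thus not particular to the members. Next was the heat shock gene Hspa1a, which vehicle members held at 76.7 CPM and cisplatin members at 650 CPM (159 and 397 CPM in the others). Vgf and Nucb2, which encodes the nesfatin precursor, came next. Nucb2 was at 81.5 and 526 CPM in the members and 55.7 and 83.8 CPM in the others. The lowest were Dcpp1, at 240 CPM over vehicle members but with all 50 UMIs in 1 of the 17 cells, and Sst (log2 ratio -2.60). The glycolytic gene Aldoc was at 211 and 38.0 CPM. Hspa1a, Nucb2, Dcpp1 and Aldoc were named after their values were seen. With 17 vehicle cells from 1 library, the differences have no replicate check.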

How the data were processed

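Single-cell RNA of GFP-sorted tumour cells was counted in 1 vehicle and 1 cisplatin library. Raw UMI counts of 28692 genes were used as the authors deposited them, with no normalization per the file headers. Per the submitters' processing notes, Cell Ranger 2.0.2 and mm10 were used in roles not stated. No label mentions doublets, and no doublet caller was run.

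Members and lists were chosen with earlier results of these data known. Counts were summed over members and over the other kept barcodes of each library and scaled to CPM. Genes with 50 or more UMIs (cisplatin) or a mean of 100 CPM or more (other comparisons) counted as measured, and 2-fold in CPM + 1 as called. With 1 library per group no test was made; intervals are exact 95% Poisson (levels) or Clopper-Pearson (shares), and a level of 0 allows 3 counts of the total. Shares, cycling and variation used barcodes thinned to 3000 UMIs. The steps were tested on simulated data.

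Named genes were the 15 highest and 12 lowest cisplatin ratios at a mean of 20 CPM or more (without mitochondrial, ribosomal, haemoglobin, predicted, Y-linked genes and Xist), up to 4 genes per list with the largest ratios, the 10 most variable genes and a fixed set; other members named within a list were chosen to show it after their values were seen. Some items are not reported here. Coordinates are from GENCODE M21 (GRCm38), matched for 28416 of the gene identifiers, and promoters from RefSeq (GRCm38.p6). Alternatives included TMM (edgeR 4.0.16) and median-of-ratios (DESeq2 1.42.0) scaling in R 4.3.3. Python 3.11.15, numpy 2.4.6, scipy 1.17.1, pandas 2.3.3 and matplotlib 3.10.9 were used.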

Additional observations from a re-analysis of the deposited data

Results flagged for a closer look

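Scgb1a1 differed between the libraries in direction. Members over other cells gave a log2 ratio of -3.65 in the vehicle library, from 12 UMIs in 17 members, and 3.91 in the cisplatin library. The difference was not tested. In the cisplatin library 44331 of the members' 46519 UMIs of this gene were in 1 barcode, and without that barcode the log2 ratio there was -0.48.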

How the results depend on the processing

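Of 113 alternative values, 64 stayed within the counting interval or within 1.5 times the count, and 49 moved. A change of direction was not counted as a separate outcome. The cisplatin share of Hhex/Isl1 cells was 14.98% with a minimum sum of 10, 15.4% with 4 or more genes and 13.6% when the rule was applied after thinning to 3000 UMIs, under which the vehicle share was 0.284% instead of 0.463%. Genes higher in cisplatin members numbered 448 with a minimum of 200 UMIs, 1385 at 1.5-fold and 288 at 4-fold, instead of 745. Genes lower numbered 768, 2194 and 375 under the same settings, 629 with 5 CPM added and 2226 against the other vehicle cells, instead of 1166. With a floor of 200 CPM the vehicle calls were 52 higher and 33 lower, and 20 genes were lower in cisplatin than in vehicle members. TMM and median-of-ratios scaling, run for the cisplatin members against the other cisplatin cells, kept those counts of higher and lower genes within 1.5 times.

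At 2000 and 5000 UMIs, the cycling share was 28.4% and 46.3% in cisplatin members, 33.4% and 56.2% in other cisplatin cells and 25.4% and 42.9% in other vehicle cells. With 1 or more and 3 or more mitotic UMIs it was 56.8% and 25.4%, 59.7% and 32.6%, and 54.6% and 23.8% in the same order. The share of cisplatin members with Sst was 37.8% and 52.99% at these depths, with Pnoc 54.4% and 67.1% and with Calcb 52.9% and 69.1%, and with Pyy 13.6% at 2000 UMIs. The variance over mean was 26.9 and 74.1 for Sst, 11.4 and 35.3 for Pyy, and 709 and 1913 for Scgb1a1. These values move with the depth by construction.

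Without barcodes above 20000 UMIs Pnoc was at 706 CPM, Scg2 at 7850 CPM, Sftpc at 676 CPM and Scgb1a1 at 353 CPM. With a minimum sum of 10 Scg2 was at 7819 CPM, Sftpc at 674 CPM and Scgb1a1 at 346 CPM. Leaving out the highest-UMI member, an alternative chosen after seeing the data, gave 7678 CPM for Scg2, 350 CPM for Scgb1a1 and a variance over mean of 4.36 for Scgb1a1. No paired analysis was possible because each group has 1 library. Depth limits the vehicle members most: their 208669 UMIs put a gene with 0 UMIs at up to 14.4 CPM.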

Other observations

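Genes that no list held were among the members' clearest differences. Lgals1, which encodes the sugar-binding protein galectin 1, was at 177 CPM in vehicle members (125 to 244) and 515 CPM in cisplatin members (497 to 533), against 7.04 and 23.7 CPM in the other cells. Gpx3, a secreted glutathione peroxidase, was at 518 and 1686 CPM, against 101 and 276 CPM, and Cd200, a surface glycoprotein, at 201 and 832 CPM, against 50.3 and 118 CPM. Wfdc2, a secreted protease inhibitor of airway epithelium, was lower, at 843 and 275 CPM in the members, against 1743 and 1599 CPM. All 4 were chosen after their values were seen, and each had the same direction in both libraries.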
